A study of Mus musculus with 6 samples.

Results

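The collagen chain genes are the entries of the deposited gene tables whose symbol reads Col, a type number, a and a chain number. The rule found 43 of the 23700 entries, on 14 chromosomes. RNA sequencing was done on IDG-SW3, a mouse bone cell line that carries a temperature-sensitive T-antigen and a GFP reporter driven by the Dmp1 promoter. In osteogenic medium its cells mature from osteoblast-like into osteocyte-like cells. The Control group (n = 3) received PBS and the PTH group (n = 3) received PTH(1-34), a fragment of parathyroid hormone that activates its receptor, at 50 nM for 24 hours from day 28. Both groups had been kept in 50 µg/ml ascorbic acid, a cofactor of collagen hydroxylation, and 4 mM β-glycerophosphate. This is a single cell line, the plates were coated with type I collagen protein, and the samples were wells, so the p-values measure only the spread between wells, which may be technical.

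Collagens are built from 3 polypeptide chains wound into a triple helix, each chain from its own gene, so that a type with different chains needs its partner genes expressed together. Fibrillar collagens form the banded fibrils that give bone its tensile strength, with type I as the main component. Network collagens form the sheets of basement membranes and the hexagonal lattices of types VIII and X. FACIT collagens sit on the surface of fibrils, beaded collagens form microfibrils around cells, transmembrane collagens stay anchored in the plasma membrane, and multiplexins and the anchoring fibril collagen join basement membranes to the matrix beneath.

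Many members held a sequence feature that their names did not use. The miR-29 family of microRNAs is known for pairing with collagen transcripts. Its 3 mature members in mouse, shown 5′ to 3′ from RefSeq (GRCm38.p6) with the seed at bases 2 to 8 in capitals because that seed defines the match searched for, have 1 seed in common.
miR-29a-3p: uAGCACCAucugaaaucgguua
miR-29b-3p: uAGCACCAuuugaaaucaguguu
miR-29c-3p: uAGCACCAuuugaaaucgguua
The letters TGGTGCT are the reverse complement of this seed. They were searched on the transcript strand in the longest 3′ UTR of each gene in GENCODE M21. They were found in 24 of the 43 members (55.8%), against 13.05% of 20979 genes with a 3′ UTR. At least 2 matches were found in 10 members, against 2.02% of those genes. The median 3′ UTR length was 1016 bases in the members and 954 bases in all genes. Members compared below that held no match include Col13a1, Col8a2, Col11a2 and Col6a1. The first matches of 8 members with a match are shown, the match in capitals. Up to 12 flanking bases are given on the 5′ side and 10 on the 3′ side.
Col3a1: aaaatgtctcaaTGGTGCTataataaata
Col5a2: ttcttttaatgaTGGTGCTaaaattattt
Col5a3: acatgggctcctTGGTGCTgaggctctga
Col7a1: ctgtgctccattTGGTGCTagagttgtgt
Col2a1: tgtcctacacaaTGGTGCTattctgtgtc
Col4a1: accgtcacaacaTGGTGCTactccccccc
Col4a2: ggaaggccacgtTGGTGCTtatccttctg
Col8a1: tatattctaccaTGGTGCTaatatcagag
Col5a1 held 4 matches, the most of any tested member, and Col4a5 and Col5a3 held 3 each. A match is a description of the letters and not a shown target site, and microRNAs were not measured in these polyadenylated libraries.

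Expression was given as FPKM, the fragments of a gene divided by its transcript length and by the library's mapped fragments, so that levels can be set beside each other between genes. The implied number of fragments, read from the width of the authors' bounds, was 13958213 to 19043743 per library in Control and 22479950 to 24481480 in PTH outside type I collagen. Every PTH library was the deeper. The osteocyte label was checked on Dmp1, Sost, Mepe and Phex, which were present in Control at 827, 53.3, 208 and 60.4 FPKM (means), while Fgf23 was at or near 0 in every library. In PTH Dmp1 was at 3.64 FPKM and Sost at 0.0941 FPKM. These 4 fell and Pdpn, an early osteocyte marker, rose, while of 5 osteoblast markers 4 fell, among them Ibsp and Bglap, and of 2 tested tendon markers 1 fell. Fewer cells of a type and less RNA per cell cannot be told apart in bulk RNA.

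Of the 43 members, 28 had a mean of at least 1 FPKM over the 6 libraries and were tested, 13 lay below that filter, and the type I genes Col1a1 and Col1a2 lacked a Control estimate. Of the tested members 2, Col13a1 and Col23a1, had a mean under 1 FPKM in a single group and passed the filter through the other. The members nearest the filter were Col20a1, at a mean of 0.885 FPKM, outside it, and Col23a1, at 1.07 FPKM, inside it. In the limma fit over all 11864 tested entries, 13 members rose and 15 fell at an adjusted p below 0.05, and none was left uncalled. This has to be read against a background in which 73.8% of all tested entries were called, 50.3% higher and 23.5% lower. The share of members called higher was 46.4% and the share called lower was 53.6%. At a change of at least 1 on the log2 scale, 12 members were called (42.9%) against 9.26% of all entries: 2 rose (7.14%) against 4.43% of all entries, and 10 fell (35.7%) against 4.84%.

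The median change of the tested members was -0.391 on the log2(FPKM + 1) scale, against 0.146 over all tested entries. The median of all entries moved to 0.003 with median-of-ratios scaling, so changes near it depend on the scaling. In the plot of change against level, the members that fell furthest lay in the middle of the expression range, and Col3a1, the most abundant tested member, lay among the risers.

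**Figure D1:**
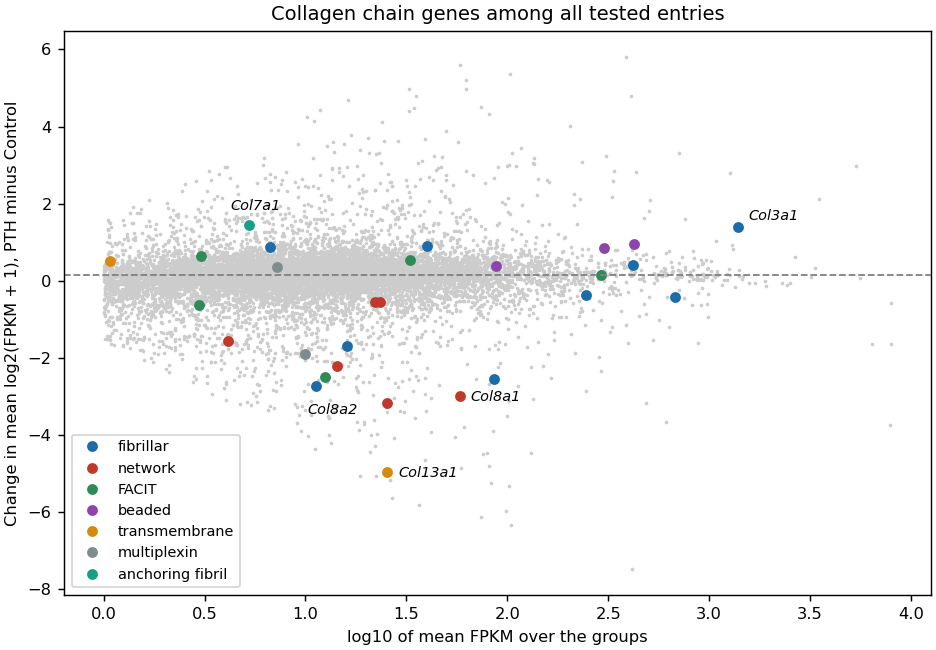
Change in mean log2(FPKM + 1), PTH minus Control, against log10 of the mean FPKM, for all 11864 tested entries (grey) and the 28 tested collagen chain genes (coloured by class); the dashed line is the median of all entries, 0.146. Col13a1, at -4.96, is the lowest member and Col7a1, at 1.45, the highest.

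The classes divided. All 6 tested network chains fell and all 3 tested beaded chains rose. The fibrillar class was split, with 4 chains higher and 5 lower of 9 tested, and the FACIT class was split as well, with 3 higher and 2 lower of 5. The transmembrane and multiplexin classes each had 1 chain higher and 1 lower, and Col7a1, the only anchoring fibril gene, rose. The median changes were -1.88 in the network class, -0.36 in the fibrillar class, 0.15 in the FACIT class and 0.84 in the beaded class. In every tested member the 3 Control values and the 3 PTH values did not overlap, which was also so for 78.2% of all tested entries (53.2% higher and 25.1% lower in PTH).

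**Figure D2:**
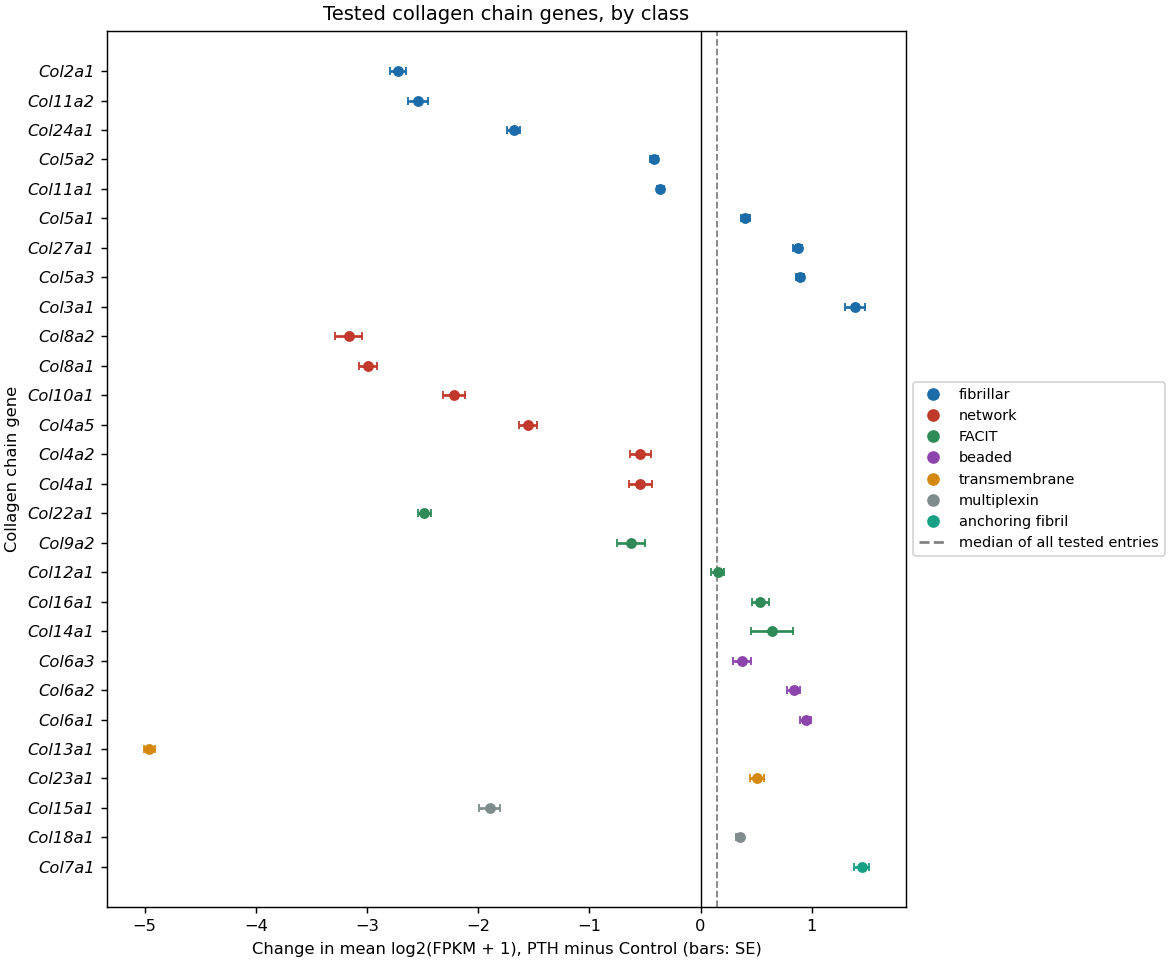
Change in mean log2(FPKM + 1), PTH minus Control, with its standard error (bars), for each tested collagen chain gene, grouped by class (colour); the solid line is 0 and the dashed line the median of all tested entries. All 6 network chains lie to the left of 0 and all 3 beaded chains to the right, and Col12a1, at 0.15, lies close to the median of all entries.

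Among the fibrillar genes, Col1a1 and Col1a2 encode the type I collagen chains, the bulk of bone matrix protein. In all 3 Control libraries they carried HIDATA, the Cufflinks status for loci whose fragments exceed the number it will process, and were listed there at 0 FPKM, which is a left-out estimate and not a level. In PTH replicates 1, 2 and 3 Col1a1 was at 5807, 5861 and 5602 FPKM. Col1a2 was at 5792, 5436 and 5409 FPKM in the same libraries. Both stood between the third and the sixth highest of all entries in each PTH library, each with 1.10% to 1.23% of the summed FPKM. The ratio of Col1a1 to Col1a2 was 1.04 ± 0.0376 (SD, n = 3) in PTH. The implied fragments in PTH were 754538 to 790567 for Col1a1 and 802105 to 839059 for Col1a2, while Ibsp, a bone matrix glycoprotein gene, had an estimate in Control at 502813 to 648422 implied fragments. No change could be computed or tested for type I collagen, and the authors' pooled table lists both genes at 0 in both groups. All 3 Control libraries carried the status though each was shallower outside type I collagen than every PTH library. No PTH library carried it. The paper states that its RNA sequencing showed lower Col1a1 with PTH. It also lists Col1a1 among genes lowered by PTH in cultured bone osteocytes.

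Col3a1, the chain of type III collagen, which makes thin fibrils with type I in soft and healing tissue, was the most abundant tested member in PTH. It measured 822, 699 and 767 FPKM in Control replicates 1, 2 and 3 and 1870, 2247 and 1891 FPKM in PTH replicates 1, 2 and 3. The groups were far apart and PTH replicate 2 was the highest of all. The means were 763 ± 61.2 and 2003 ± 212 FPKM (SD, n = 3), a ratio of 2.63, with a change of 1.39 ± 0.092 (SE) on the log2 scale and adjusted p = 1.80e-05 by limma. It moved from the 74th to 84th place among all entries in Control to the 13th to 17th in PTH.

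The type V chains, which start fibrils and limit their width, did not move as one. Col5a1 rose from 361 ± 11.3 to 478 ± 11.6 FPKM and Col5a3 from 27.6 ± 1.06 to 52.0 ± 1.00 FPKM (SD, n = 3), while Col5a2 fell from 776 ± 23.8 to 579 ± 1.32 FPKM. Col5a2 measured 790, 749 and 790 FPKM in Control and 580, 578 and 579 FPKM in PTH, with the smallest spread in PTH of any tested member (0.229% of its mean). The changes were 0.40 ± 0.039 for Col5a1, 0.89 ± 0.037 for Col5a3 and -0.42 ± 0.037 for Col5a2 on the log2 scale (SE). The Col5a1 change was 0.24 with median-of-ratios and 0.18 with quantile scaling, and the gene was still called. Type V trimers usually hold chains from both Col5a1 and Col5a2. The ratio of Col5a1 to Col5a2 was 0.456, 0.468 and 0.472 in Control and 0.826, 0.846 and 0.805 in PTH, so the chains came closer to equal levels.

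Col2a1, the chain of type II collagen, the main fibril of cartilage, fell. It measured 18.2, 21.3 and 21.2 FPKM in Control and 2.18, 2.42 and 2.04 FPKM in PTH. This was 9.15-fold lower in the ratio of means, a change of -2.72 ± 0.074 (SE) on the log2 scale with adjusted p = 3.09e-07 by limma. Col11a2, a type XI chain that joins type II fibrils, fell from 146.8 ± 7.48 FPKM to 24.5 ± 2.96 FPKM (change of -2.54 ± 0.088), with 145.6, 140.0 and 154.9 FPKM in the Control wells and 27.0, 21.2 and 25.2 FPKM in the PTH wells. Its partner Col11a1 fell far less, from 275 ± 6.12 to 214 ± 3.95 FPKM. The ratio of Col11a1 to Col11a2 was therefore 1.87 ± 0.0534 in Control and 8.82 ± 1.18 in PTH. Markers of chondrocytes moved beside these genes. Of 7 listed, 4 were tested, of which Acan, Comp and Hapln1 fell and Sox9 rose. Lect1, Matn1 and Matn3 were under 1 FPKM. The summed level of the 7 was 145.0 to 163.8 FPKM in Control and 50.6 to 63.5 FPKM in PTH. Most of that sum was Comp, at means of 139 FPKM in Control and 40.3 FPKM in PTH. The part of these markers in the result was not tested.

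Col24a1 and Col27a1, 2 further fibrillar genes that are less abundant in most tissues, moved apart. Col24a1, known for expression in developing bone, measured 26.0, 22.9 and 26.3 FPKM in Control and 6.95, 7.45 and 6.95 FPKM in PTH (change of -1.68 ± 0.060). Col27a1 rose from 4.42 ± 0.0757 to 8.93 ± 0.397 FPKM (change of 0.87 ± 0.040). The Col27a1 locus holds the entry Mir455, listed at 0 FPKM in both groups. MicroRNAs were not measured in these polyadenylated libraries, so that 0 is not a level.

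**Figure D3:**
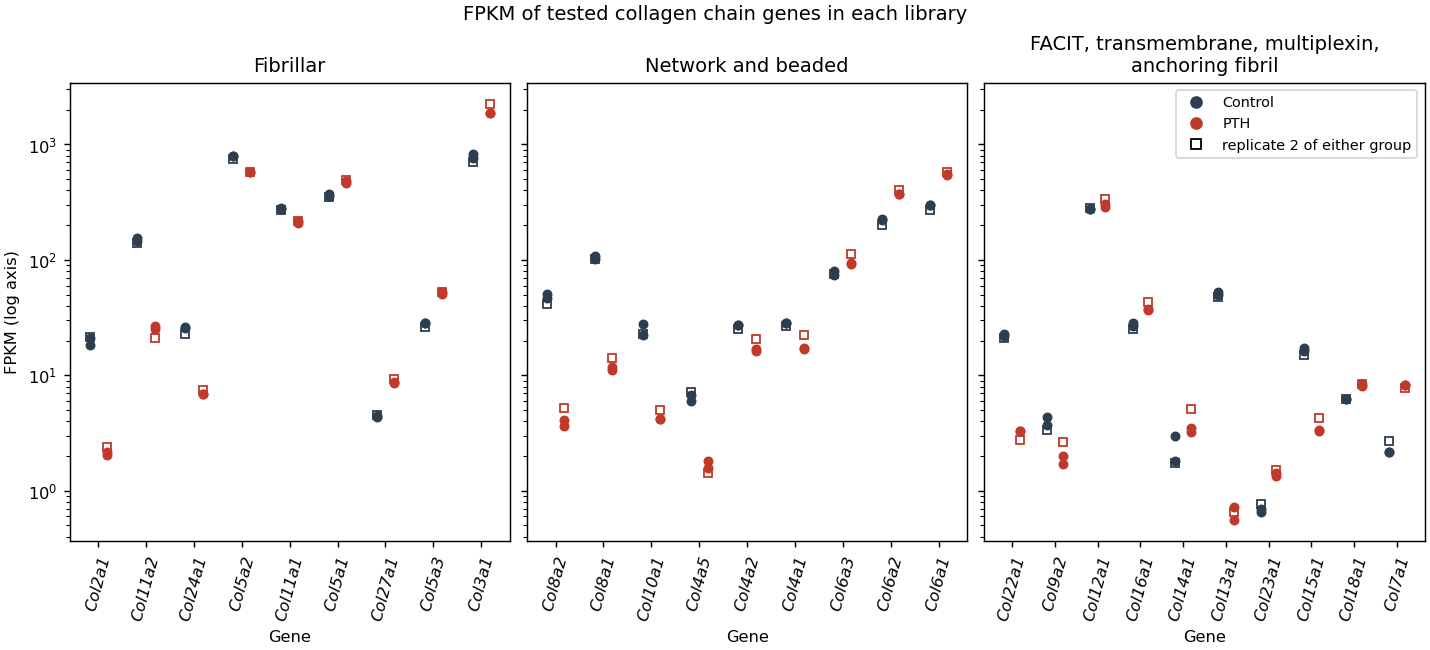
FPKM (log axis) of each tested collagen chain gene in each library, Control in dark blue and PTH in red, with replicate 2 of either group as an open square. The groups do not overlap in any of the 28 genes, and the open red square is the top PTH value in 22 of them.

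In the network class the type VIII chains fell most. Col8a1 and Col8a2 encode the short chains that build the hexagonal lattice of type VIII collagen. Col8a1 measured 107.9, 102.5 and 102.1 FPKM in Control and 11.1, 14.0 and 11.8 FPKM in PTH. Col8a2 measured 51.0, 41.6 and 46.9 FPKM in Control and 3.64, 5.22 and 4.12 FPKM in PTH. PTH replicate 2 was the highest PTH library for both chains and still far below every Control library. The changes were -2.99 ± 0.080 (adjusted p = 2.86e-07 by limma) and -3.16 ± 0.121 (adjusted p = 1.38e-06), or 8.47-fold and 10.8-fold lower in the ratio of means. The ratio of Col8a1 to Col8a2 was 2.25 ± 0.187 in Control and 2.87 ± 0.184 in PTH.

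The genes lie on different chromosomes, and because they fell together the 250 bases before each start are shown from RefSeq (GRCm38.p6), Col8a1 at chr16:57754738-57754987 on the minus strand and Col8a2 at chr4:126286544-126286793 on the plus strand. Capitals mark GGGCGG or its reverse complement CCGCCC, and in Col8a1 also TGTGGT.
Col8a1: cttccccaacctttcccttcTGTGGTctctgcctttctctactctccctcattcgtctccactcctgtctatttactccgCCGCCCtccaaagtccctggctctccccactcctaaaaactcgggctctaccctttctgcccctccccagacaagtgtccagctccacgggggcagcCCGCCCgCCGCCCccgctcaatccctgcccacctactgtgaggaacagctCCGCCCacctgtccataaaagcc
Col8a2: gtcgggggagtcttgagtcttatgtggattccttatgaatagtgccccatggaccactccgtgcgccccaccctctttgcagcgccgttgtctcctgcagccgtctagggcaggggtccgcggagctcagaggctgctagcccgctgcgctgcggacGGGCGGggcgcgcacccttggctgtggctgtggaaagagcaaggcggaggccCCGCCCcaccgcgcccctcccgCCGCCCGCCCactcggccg
Both windows hold GGGCGG on one strand or the other more than once, and their GC contents were 60.8% and 70.0%. RefSeq windows from 250 bases before the start to 50 after it were found for 35 members, 38 windows in all. Only the 250 bases before the start were searched in every window. There, GGGCGG on either strand was in 57.9% of the member windows and in 32.74% of all 32851 windows. It was in 9 of the 13 windows of members that rose and in 7 of the 12 windows of members that fell. TATAAA, on either strand, was in 13.2% of member windows and 12.37% of all, CCAAT in 34.2% and 33.85%, TGTGGT, the core letters bound by Runx factors, in 7.9% and 14.05%, TGACTCA in 2.6% and 4.46%, and TGACGTCA, the full cyclic AMP response element, in 0 of the member windows and 1.55% of all. These matches describe the letters of the windows, and no binding was measured.

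Type IV collagen is the network of basement membranes. Col4a1 and Col4a2, its common chains, lie head to head on mouse chromosome 8 (mm9) with 2 bases between the entries, and they fell by nearly the same amount. Col4a1 measured 28.4, 26.6 and 28.4 FPKM in Control and 17.0, 22.5 and 17.3 FPKM in PTH (change of -0.54 ± 0.102). Col4a2 measured 27.3, 25.0 and 27.0 FPKM in Control and 16.1, 20.8 and 16.9 FPKM in PTH (change of -0.54 ± 0.093). The wells were ordered alike for the 2 genes in PTH, with replicate 2 the highest, and their ratio was 1.05 ± 0.0145 in Control and 1.06 ± 0.0271 in PTH. Col4a5, a chain of the more specialised type IV networks, fell further, from 6.64 ± 0.625 to 1.60 ± 0.185 FPKM (change of -1.55 ± 0.079). Its neighbour Col4a6, 1342 bases away on the X chromosome, was below the filter, and Col4a3 and Col4a4, 71 bases apart on chromosome 1, were below it too.

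Col10a1, the network collagen of hypertrophic cartilage, measured 27.9, 22.6 and 22.5 FPKM in Control and 4.18, 4.96 and 4.17 FPKM in PTH. It was 5.48-fold lower in PTH, a change of -2.22 ± 0.098 (SE) with adjusted p = 2.74e-06 by limma. The locus lies inside the entry Nt5dc1, which was at 7.14 and 6.39 FPKM in Control and PTH. Fragments of the 2 entries cannot be told apart by strand with this kit.

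Of the 7 beaded filament genes, the 3 that were tested rose. Col6a1, Col6a2 and Col6a3 encode the chains of type VI collagen, which forms microfibrils in the matrix next to cells. Col6a1 measured 302, 271 and 297 FPKM in Control and 542, 581 and 553 FPKM in PTH, a change of 0.95 ± 0.052 (SE) with adjusted p = 7.65e-06 by limma. Col6a2 measured 225, 200 and 220 FPKM in Control and 375, 407 and 373 FPKM in PTH, a change of 0.84 ± 0.058. Col6a3 rose less, from 76.6 ± 2.76 to 99.96 ± 11.5 FPKM (change of 0.37 ± 0.080, adjusted p = 0.00496), and was no longer called with median-of-ratios scaling (0.21, adjusted p = 0.0571). With quantile scaling it was 0.24 (adjusted p = 0.0456). The 3 genes thus rose by unequal amounts: the ratio of Col6a1 to Col6a2 was 1.35 ± 0.005 in Control and 1.45 ± 0.028 in PTH, and that of Col6a1 to Col6a3 was 3.78 ± 0.227 and 5.62 ± 0.442. Col6a2 and Col6a1 are neighbours on chromosome 10 with 85387 bases between them, while Col6a3 is on chromosome 1.

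In the FACIT class, Col22a1, known from tissue junctions such as those of muscle and tendon, changed most. It measured 21.9, 21.015 and 22.8 FPKM in Control and 3.26, 2.75 and 3.26 FPKM in PTH, 7.07-fold lower (change of -2.48 ± 0.061, adjusted p = 2.05e-07 by limma). PTH replicate 2 was the lowest PTH library here, unlike in most other members. Col9a2, a chain of type IX collagen from the surface of type II fibrils, fell from 3.79 ± 0.518 to 2.12 ± 0.476 FPKM (change of -0.63 ± 0.126). The other type IX chains, Col9a1 and Col9a3, were below the filter, and the Col9a3 entry overlaps that of Tcfl5 only at an end.

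Col12a1, a fibril surface collagen of tendon and periosteum, was the most abundant FACIT gene and changed least of the tested members. It measured 274, 279 and 276 FPKM in Control and 303, 334 and 288 FPKM in PTH, a change of 0.15 ± 0.056 with adjusted p = 0.0429 by limma, close to the median of all entries, 0.146. With median-of-ratios scaling the change was -0.01 (adjusted p = 0.897), so its direction turned, and the call was lost also with TPM and quantile scaling. It was lost without any 1 of the Control libraries (adjusted p = 0.0701 to 0.102), without PTH replicate 1 (0.0818) and without PTH replicate 2, where the change was 0.10 (adjusted p = 0.0675), and over all alternatives the adjusted p was 0.0201 to 0.897. Col16a1 rose from 26.6 ± 1.62 to 39.2 ± 3.73 FPKM (change of 0.54 ± 0.075). Col14a1, which like Col12a1 binds the fibril surface, measured 2.96, 1.75 and 1.795 FPKM in Control and 3.21, 5.08 and 3.53 FPKM in PTH (change of 0.64 ± 0.189, adjusted p = 0.0191). Control replicate 1 was close to PTH replicate 1, and the Col14a1 call was lost without Control replicate 2, Control replicate 3 or PTH replicate 2 (0.55, 0.56 and 0.48, adjusted p = 0.0653, 0.0660 and 0.0521). Without replicate 2 of both groups it was 0.39 (adjusted p = 0.121), and over all alternatives the adjusted p was 0.00637 to 0.121.

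The transmembrane gene Col13a1 had the largest change of all members. Its product sits in the plasma membrane at sites of adhesion. It measured 49.7, 48.0 and 52.5 FPKM in Control and 0.718, 0.659 and 0.554 FPKM in PTH, 77.8-fold lower in the ratio of means. The change was -4.96 ± 0.052 (SE) on the log2(FPKM + 1) scale, which understates it because the PTH values lie under the pseudocount of 1, with adjusted p = 1.07e-08 by limma. The 3 PTH libraries together held 156 implied fragments of Col13a1 and the 3 Control libraries 9323. Col23a1, of the same class, went the other way at a low level, from 0.710 ± 0.0564 to 1.43 ± 0.0850 FPKM (change of 0.51 ± 0.062, and 0.92 with a pseudocount of 0.1).

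Of the multiplexins, Col15a1 fell and Col18a1 rose. Col15a1 measured 17.4, 14.9 and 16.4 FPKM in Control and 3.35, 4.26 and 3.29 FPKM in PTH (change of -1.90 ± 0.093). Col18a1, the source of endostatin, measured 6.29, 6.18 and 6.28 FPKM in Control and 8.34, 8.42 and 8.01 FPKM in PTH (change of 0.35 ± 0.033, and 0.21 with median-of-ratios scaling, still called). The anchoring fibril gene Col7a1, best known from the skin, rose from 2.18, 2.69 and 2.17 FPKM in Control to 8.32, 7.79 and 8.27 FPKM in PTH. Its change of 1.45 ± 0.069 (adjusted p = 3.74e-06 by limma) was the largest rise on the log2 scale among the tested members.

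Col3a1 and Col5a2 are neighbours on chromosome 1, at chr1:45368383-45406551 and chr1:45431176-45560127 (mm9), with 24624 bases between them, and they moved in opposite directions. The ratio of Col3a1 to Col5a2 was 1.04, 0.934 and 0.971 in Control and 3.22, 3.89 and 3.27 in PTH. At near-equal levels in Control, Col3a1 thus stood above its neighbour in every PTH well.

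**Figure D4:**
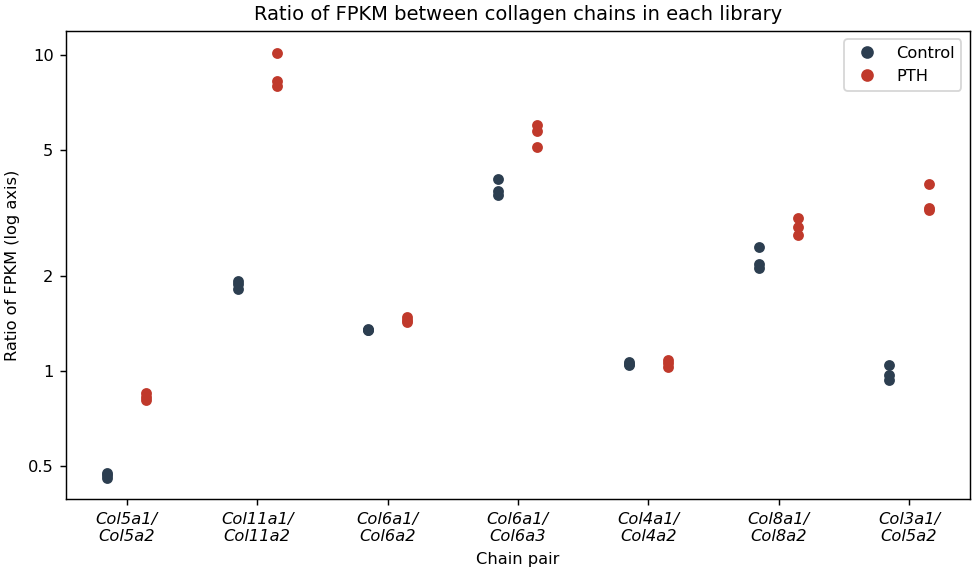
Ratio of FPKM between pairs of collagen chain genes in each library (points, log axis), Control in dark blue and PTH in red. The Col4a1 to Col4a2 ratio stays near 1.05 in both groups, while the Col11a1 to Col11a2 ratio goes from 1.87 to 8.82 and the Col3a1 to Col5a2 ratio from 0.982 to 3.46.

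Summed over the 41 members with an estimate in every library, collagen transcripts were at 3729, 3459 and 3687 FPKM in Control and 4682, 5206 and 4671 FPKM in PTH. The ratio of the means was 1.34. Without Col3a1 the sum was 2863 ± 89.1 FPKM in Control and 2850 ± 95.3 FPKM in PTH (SD, n = 3), a ratio of 0.996, so the higher sum was carried by Col3a1. Col3a1 made up 20.2% to 22.0% of the sum in Control and 39.9% to 43.2% in PTH. The network class went from 6.35% to 6.67% of the sum in Control to 1.15% to 1.33% in PTH, and the beaded class from 15.8% to 16.2% to 21.2% to 21.8%. Type I collagen is outside these sums because it has no estimate in Control. Within the PTH libraries its genes stood above every other member, with means of 5757 FPKM for Col1a1 and 5546 FPKM for Col1a2. The sums and their ratio therefore do not describe collagen RNA as a whole.

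**Figure D5:**
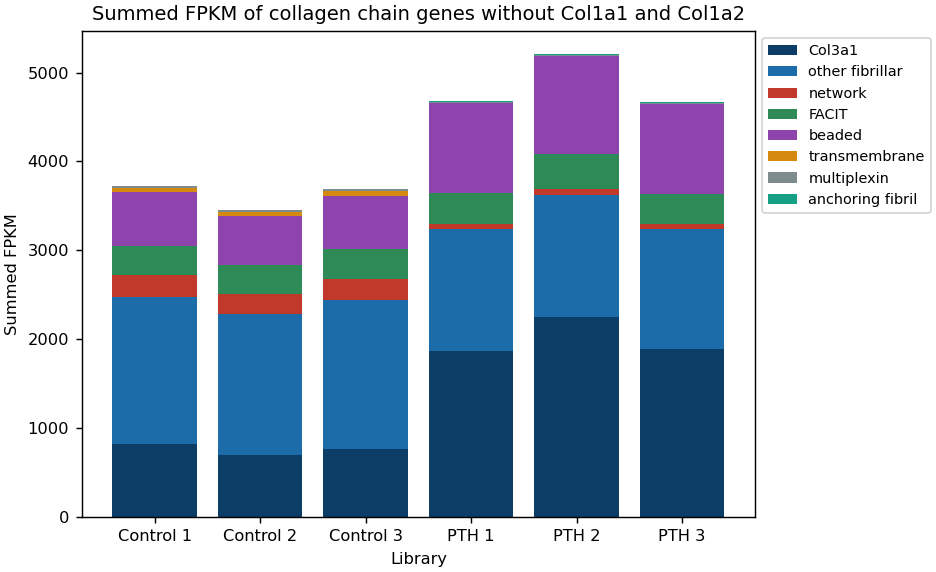
Summed FPKM of the collagen chain genes other than Col1a1 and Col1a2 in each library (stacked bars from 0), with Col3a1 apart from the other fibrillar genes. Col3a1 grows from 699 to 822 FPKM in Control to 1870 to 2247 FPKM in PTH, and the network part shrinks from a mean of 236 to 59.7 FPKM.

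The 13 members below the filter reached at most 1.31 FPKM in any library. Of these, 8 had groups that did not overlap, 2 higher and 6 lower in PTH, against 33.1% of all 6433 entries below the filter with a value above 0 (12.1% higher and 21.1% lower). With no filter the same 2 were called higher and the same 6 lower, against 9.48% and 16.3% of those entries. Col17a1, a transmembrane collagen of epithelial hemidesmosomes, was at 0.0597 to 0.119 FPKM in Control and 0.616 to 0.702 FPKM in PTH, and Col6a5 was at 0.121 to 0.262 and 0.392 to 0.475 FPKM. Col20a1, Col4a4, Col4a6, Col25a1, Col28a1 and Col6a6 were lower in every PTH library than in any Control library. Col4a3, Col6a4, Col9a1, Col9a3 and Col19a1 overlapped between the groups. Emid2, which RefSeq names Col26a1, is not matched by the rule and was at 0 to 0.132 FPKM.

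The spread within groups had a pattern of its own. PTH replicate 2 was the highest PTH library in 22 of the 28 tested members (78.6%), against 32.0% of all tested entries, and Control replicate 2 was the lowest Control library in 19 (67.9%), against 56.8%. The median coefficient of variation was 9.56% in the members and 3.93% in all entries in PTH, and 5.38% and 4.84% in Control. Markers of adipocytes moved in the same libraries: PTH replicate 2 was the highest PTH library for all 8 of them, and their summed level was 785, 550 and 630 FPKM in Control replicates 1, 2 and 3 and 74.3, 154.3 and 91.5 FPKM in PTH replicates 1, 2 and 3. All 8 fell between the groups, and the part of these cells in the collagen values was not tested. Among other tested markers, PTH replicate 2 was the highest PTH library for 3 of 4 chondrocyte and 3 of 5 osteocyte markers. The same held for 2 of 5 osteoblast markers and 1 of 2 tendon markers. Without replicate 2 of both groups, 12 members were called higher and 15 lower. Endothelial markers were near 0 in every library, with all 5 under 1 FPKM and Cdh5 at 0, and of the 5 macrophage and osteoclast markers Calcr and Emr1 were at 0, Csf1r and Ptprc were under 1 FPKM, and Acp5 fell from 3.04 ± 0.467 to 1.78 ± 0.555 FPKM (change of -0.55, adjusted p = 0.0152 by limma). Among the muscle markers Myod1 was at 0, Myog and Myh11 were under 1 FPKM, and Acta2 was at 259 and 265 FPKM in Control and PTH with no call. Des, below the filter and not tested, was at 0.850 to 1.55 FPKM in Control and 0.207 to 0.392 FPKM in PTH.

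Members with a miR-29 seed match moved in both directions, as did those without. Of the 18 with a match, 8 rose and 10 fell, with a median change of -0.391. The 10 without a match had a median of -0.236. Over all tested entries with a 3′ UTR, the medians were 0.12 for the 1644 with a match and 0.154 for the 8495 without.

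The genes that modify, export, cleave, bind and degrade collagen were read from lists beside the chains. The counts of these lists stand beside 50.3% of all tested entries called higher and 23.5% called lower. Of 16 tested genes for hydroxylation, glycosylation and folding, 5 rose and 9 fell. P4ha1, a subunit of the prolyl hydroxylase that stabilises the triple helix, fell from 136 ± 5.01 to 44.4 ± 2.77 FPKM (change of -1.60), and Crtap, of the prolyl 3-hydroxylation complex, fell from 237 ± 9.01 to 124 ± 3.86 FPKM (change of -0.93). Plod2 and Plod3, lysyl hydroxylases that prepare crosslinks, rose with changes of 0.98 and 0.94. Of the 9 genes for procollagen export and its control 3 rose and 5 fell. The largest fall was in Creb3l1, a transcription factor known to act on type I collagen genes in osteoblasts, from 254 ± 8.16 to 86.8 ± 0.796 FPKM (change of -1.54).

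Of 11 tested genes for procollagen cleavage and crosslinking, 3 rose and 6 fell. Loxl2, a lysyl oxidase, rose from 86.5 ± 3.06 to 191 ± 5.47 FPKM (change of 1.13), while Loxl4, of the same family, had a change of -2.64. Of 7 tested receptors, 1 rose and 3 fell. Itga11, the integrin subunit for fibrillar collagens, rose from 36.2 ± 0.188 to 152 ± 5.32 FPKM (change of 2.04), and Itga10, a collagen-binding subunit of cartilage, fell from 33.8 ± 0.554 to 4.69 ± 0.107 FPKM (change of -2.61). Of 5 tested genes for degradation, 4 rose and Fap, a cell-surface protease, fell. Mmp2, a gelatinase, had a change of 0.73 and Mmp13, a collagenase of bone, rose from 2093 ± 114 to 3212 ± 136 FPKM (change of 0.62). The median changes of these lists were -0.25, -0.19, -0.21, -0.05 and 0.46 in the order given, beside 0.146 for all tested entries.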

How the data were processed

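Polyadenylated RNA of 6 wells was sequenced as 6 libraries with an unstranded kit. The authors deposited, for each library, gene-level FPKM values with bounds and a status. The submitters' processing notes name mm9, CASAVA 1.8, TopHat, Bowtie2, SAMtools and Cuffdiff, with the annotation and the strand option not given in the sources used here. A deposited group comparison holds 1 pooled FPKM per group with fold changes and p-values, of which only the pooled FPKM of the type I genes is mentioned. Groups came from the labels, and 0 value columns were left unmapped.

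FPKM are not counts, so log2(FPKM + 1) was fitted with limma 3.58.1 in R 4.3.3 (lmFit, eBayes with a variance trend) for the 11864 entries with a mean of at least 1 FPKM. Entries with status HIDATA or FAIL in any library were left out (38 of at least 1 FPKM). P-values were Benjamini-Hochberg adjusted over all tested entries, with a threshold of 0.05. Implied fragments are the square of FPKM over its standard error, taken as the half-width of the bounds divided by 2, and cover estimation error within a library only. Listed starts were read as 0-based and are printed 1-based.

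The members, classes and lists were chosen with earlier results of these data known. Each tested member was described within its class, with all 6 values for the largest changes and highest levels in each class, and at most 2 called genes per direction were named from each collagen pathway list. The rule named Dmp1, Sost, Ibsp and Bglap for the check of the cells, and the other cell type markers were named after their values were seen. Alternatives covered the pseudocount, the filter, TPM, median-of-ratios and quantile scaling, the variance trend, a replicate block, HIDATA entries kept at 0 and each library left out. Leaving out replicate 2 of both groups was chosen after seeing the data. Sequences are from RefSeq (GRCm38.p6) and GENCODE M21, whose coordinates were not mixed with those of mm9.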

Additional observations from a re-analysis of the deposited data

How the results depend on the processing

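Of the 28 tested collagen chain genes, 25 kept direction and call under every one of the 16 alternatives that could include them, and the exceptions were Col12a1, Col14a1 and Col6a3. Col12a1 turned to -0.0095 with median-of-ratios scaling and was not called in 9 of the alternatives. Over the alternatives 11 to 14 chains were called higher and 13 to 21 lower, against 13 and 15, apart from the one that kept Col1a1 and Col1a2 at their listed 0 in Control, where those 2 made the higher count 15 and say nothing of a level. Leaving out each library in turn gave 11 to 13 and 15. All entries called numbered 8069 to 8459 in those, against 8750. The higher share of all calls was 68.2%, and it was 50.0% with median-of-ratios, 61.6% with TPM and 55.9% with quantile scaling, where 11, 12 and 12 chains were called higher and 15 lower. The summed FPKM ratio was 1.28 with TPM, against 1.34. With no filter 41 chains were tested, which gave the 14 and the 21, and 10125 of 18297 entries were called. A replicate block gave 8576 calls, with 13 chains higher and 15 lower. Deviations from the group means correlated at -0.079, 0.002 and -0.038 for equally numbered wells and at -0.086 to 0.117 for unequally numbered wells. Such deviations are tied to each other within a group, so these values cannot decide whether wells were paired. The labels give only a replicate number, and no pairing was used. Levels of type I collagen cannot be compared, since the Control values are left-out estimates.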
